A study of Mus musculus with 6 samples.

Results

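Chemokines are small secreted proteins that draw leukocytes towards a tissue through G protein-coupled receptors, and 44 genes of this family were followed in stromal cells of mouse bone marrow (BMSCs, primary mesenchymal cells in culture). The genes were taken by name from the 19739 genes of the deposited expression table: every Ccl, Cxcl, Ccr, Cxcr and numbered Ackr gene and Cx3cl1, with Cxcl12 left out. They comprised 29 chemokine genes, 11 genes of classical receptors and 4 genes of atypical receptors, which bind chemokines without the usual signalling and clear or hold them. Members were grouped by the cells that each chemokine attracts.

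The cells came in 2 groups of 3 libraries each. In one group an adeno-associated virus (AAV) had delivered FTO, the demethylase of the m6A mark on RNA, in the form labelled WT, and in the other the form labelled 3KR, which the labels do not spell out. The sample titles carry the prefix OE, and all 6 libraries were inputs of an m6A assay on poly(A) RNA, so they give transcript levels and not methylation. The strain, sex and age of the mice and the promoter of the vector are not stated in the labels, and no library of untreated cells was analysed here. Fto itself averaged 258 ± 9.84 FPKM with the WT form and 443 ± 24.8 with the 3KR form (SD, n = 3), so the form and the amount of the transcript differed together.

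Stromal cells of the marrow make chemokines both at rest and in inflammation, and by doing so regulate which blood cells leave or enter the marrow. Chemokines that carry a Glu-Leu-Arg motif before the CXC cysteines attract neutrophils through Cxcr2, the MCP group of CC chemokines attracts monocytes through Ccr2, and the interferon-induced Cxcl9 and Cxcl10 attract activated T cells and natural killer (NK) cells through Cxcr3. Many of these genes are induced by NF-kB, the transcription factor downstream of interleukin-1, tumour necrosis factor and Toll-like receptors, or by interferon regulatory factors.

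Values were FPKM (fragments scaled by transcript length and library size), with an unknown depth, and summed to between 390527 and 391767 per WT library and between 408605 and 421234 per 3KR library. All 10 marrow stromal markers were above the filter on low values, which kept genes at 1 FPKM or more in any 3 libraries. They differed between the groups as well: 6 fell under all 4 scalings described below, among them Ly6a 3.01-fold and Col1a1 2.27-fold, and Lepr rose 4.59-fold under all 4. Of all tested genes, 13.9% were called lower and 21.5% higher under all 4. Vim rose 1.78-fold as deposited and was called higher under 3 of the 4 scalings. Quantile normalization left no difference in Vim. It does so for any gene of the same rank in all libraries, so it could not decide here. The part of these differences in the chemokine levels was not tested. Markers of other cells were low. The summed FPKM of 15 macrophage and monocyte markers was 9.97 to 11.2 in WT and 1.56 to 3.06 in 3KR. That of 7 endothelial markers was 5.17 to 6.31 and 1.94 to 2.17. Most of it was Tek alone, which averaged 5.1 FPKM in WT and 1.5 in 3KR. Of the 7, 5 had a lower mean in 3KR and 1, Kdr, a higher one. The sum of 4 megakaryocyte and platelet markers was 1.72 to 2.17 and 0.896 to 1.41. Most of that difference lay in Ppbp, itself a chemokine gene, which averaged 0.924 FPKM in WT and 0.137 in 3KR. Pf4 also had a lower mean in 3KR, and Gp1ba was listed at 0. Itga2b, the only one tested, averaged 0.950 and 0.983 (limma adjusted p = 0.863). The sums were 0.309 to 0.578 and 0.0231 to 0.212 for 4 neutrophil markers, 0.239 to 0.306 and 0.240 to 0.241 for 3 T and NK cell markers, and 0.0631 to 0.352 and 0.0579 to 0.136 for 4 B cell markers. Nothing in the labels ties the libraries to separate animals or cultures, so the p-values rest on a spread that may be technical.

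Most of the chemokine transcripts above the filter in these cultures were lower in 3KR, and fractalkine (Cx3cl1) was the abundant exception. Of the 44 genes, 17 passed the filter, 15 chemokines and 2 atypical receptors. Among these, 13 fell in 3KR and 3 rose at a limma adjusted p under 0.05, and 1, Ackr4, was not called. Over all 10985 genes tested, 14.0% were called lower and 46.7% higher. The 13 and the 3 were also called under each of 4 scalings (as deposited, same sum, median ratio and quantile), where 13.9% of all genes were called lower and 21.5% higher under all 4. Of the 17 genes, 5 passed the filter through the libraries of 1 group alone, so a difference was built into their choice: Ccl8, Ccl11 and Cxcl9 through WT and Ccl25 and Ccl28 through 3KR. Among the other 12, which were at 1 FPKM or more in every library, 10 fell and 1 rose. In bulk RNA, fewer cells of a type and less RNA per cell cannot be told apart.

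On the log2(FPKM + 1) scale the median tested gene lay 0.15 above WT in the 3KR group, a ratio of 1.11, and relative log2 changes below are given after subtracting it. Ratios are of mean FPKM as deposited. As deposited, 1535 of all tested genes were called lower and 5127 higher, and after median ratio scaling 2645 (24.1%) and 2371 (21.6%). The median relative log2 change of the 17 members was -1.29. WT and 3KR libraries did not overlap for 13 members that were lower and 3 that were higher, against 15.5% and 51.2% of all tested genes.

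**Figure D1:**
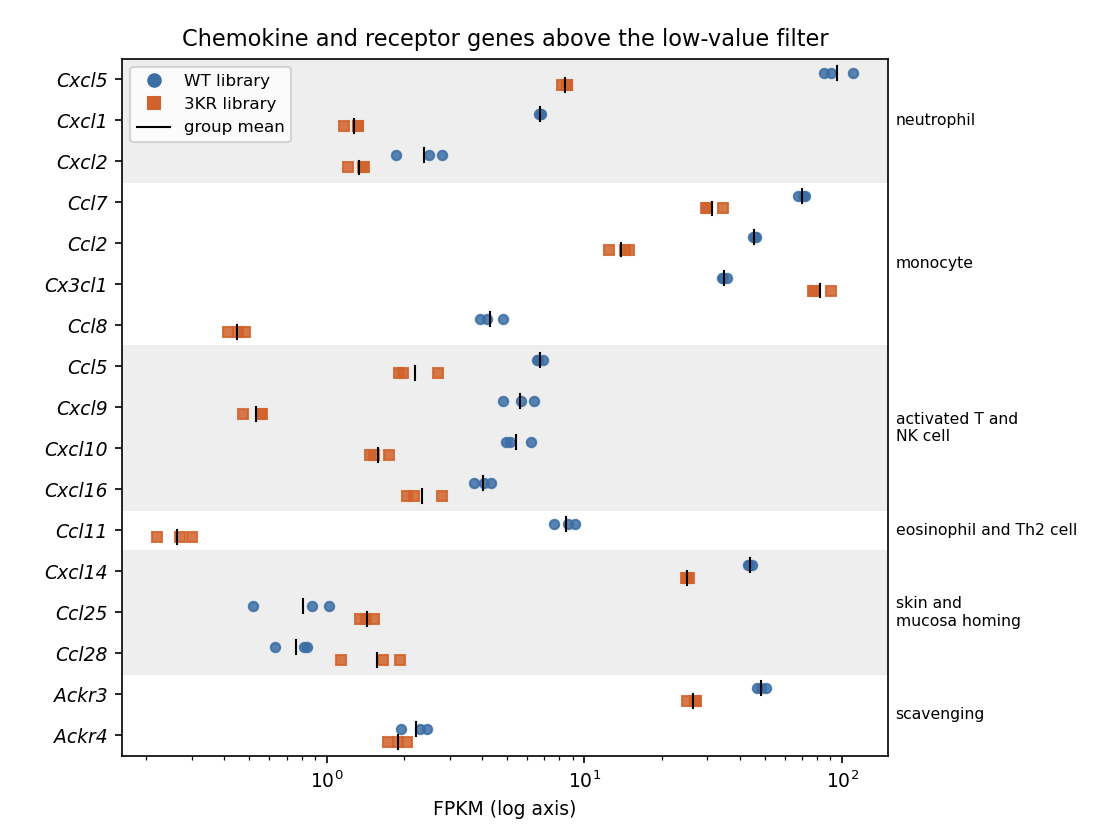
FPKM on a log axis of the 17 members above the low-value filter, in each of 3 WT libraries (circles) and 3 3KR libraries (squares), with the group mean as a black line and the attracted cells on the right. The 3KR squares of 13 genes lie left of all WT circles, those of Cx3cl1, Ccl25 and Ccl28 lie right of them, and those of Ackr4 overlap them.

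The upstream sequences of 4 members are shown as examples of windows with and without the letters that NF-kB and interferon regulatory factors bind, and they were picked after the values were seen. RefSeq sequence on GRCm38.p6 was held for 11 of the 17 members, and the 250 bases before each annotated start were searched on both strands for the NF-kB consensus, for the core of the interferon-stimulated response element (GAAA, any 2 bases, GAAA) and for the TATA box letters TATAAA. No promoter was used here for Cxcl5, Ccl2, Ccl5, Ccl7, Ccl11 and Cxcl16. Capitals mark the matches, and each sequence runs 5′ to 3′ on the gene's strand.
Cxcl1, chr5:90890995-90891244, plus strand: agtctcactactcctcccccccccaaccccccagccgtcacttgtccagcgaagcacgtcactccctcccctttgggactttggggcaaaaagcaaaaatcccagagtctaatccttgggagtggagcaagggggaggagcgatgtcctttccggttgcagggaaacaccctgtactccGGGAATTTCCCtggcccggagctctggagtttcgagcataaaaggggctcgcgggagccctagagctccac
Cxcl2, chr5:90903649-90903898, plus strand: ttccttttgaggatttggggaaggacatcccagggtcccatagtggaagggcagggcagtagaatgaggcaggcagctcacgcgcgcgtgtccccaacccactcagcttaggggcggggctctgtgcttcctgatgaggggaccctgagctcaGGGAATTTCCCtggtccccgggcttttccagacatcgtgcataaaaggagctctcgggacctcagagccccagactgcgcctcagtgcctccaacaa
Cxcl10, chr5:92348890-92349139, minus strand: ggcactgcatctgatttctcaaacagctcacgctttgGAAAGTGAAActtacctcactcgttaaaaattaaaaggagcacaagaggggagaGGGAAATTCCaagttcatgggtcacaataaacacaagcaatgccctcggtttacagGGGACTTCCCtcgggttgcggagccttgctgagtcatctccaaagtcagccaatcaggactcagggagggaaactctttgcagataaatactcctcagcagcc
Cx3cl1, chr8:94771930-94772179, plus strand: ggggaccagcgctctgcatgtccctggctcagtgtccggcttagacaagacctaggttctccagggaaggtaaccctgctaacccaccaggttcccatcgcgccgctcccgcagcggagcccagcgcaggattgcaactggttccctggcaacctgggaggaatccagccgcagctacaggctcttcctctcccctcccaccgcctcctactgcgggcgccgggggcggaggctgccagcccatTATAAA
Cxcl1 and Cxcl2 each held the 11 letters of an NF-kB match that reads on both strands, from 71 to 61 bases before the start in Cxcl1 and from 97 to 87 in Cxcl2. Cxcl10 held 2 NF-kB matches, GGGAAATTCC and GGGACTTCCC, and 1 interferon-stimulated response element, GAAAGTGAAA, from 213 to 204 bases before the start. The window of Cx3cl1 held neither and had TATAAA next to the annotated start. The NF-kB consensus was found in 3 of the 11 members (Cxcl1, Cxcl2 and Cxcl10) and in 3.90% of 32851 windows of all genes. The response element was found in 2 members (Cxcl10 and Cxcl14) and in 2.98% of all windows, and TATAAA in 6 members (Ackr3, Ackr4, Ccl8, Ccl25, Cx3cl1 and Cxcl9) and in 12.4% of all windows. Of the 7 members with a held sequence that fell, 4 had one of these 2 elements, NF-kB or response element, and 3 (Ackr3, Cxcl9 and Ccl8) had neither, like Cx3cl1, Ccl25 and Ccl28, which rose. A match is a run of letters and not a measured binding site, and a window without one says only that the letters are not there.

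Among the groups of ligands, from which Cxcl12 was left out, neutrophil-attracting chemokines showed the largest difference in summed FPKM. All 3 tested members fell. With Cxcl12 left out, Cxcl5, known in the mouse as LIX, was the most abundant chemokine transcript in WT. It was at 85.4, 90.7 and 110.4 FPKM in WT and at 8.54, 8.17 and 8.54 FPKM in 3KR. The 3KR libraries lay close together, far below the lowest WT library. The level was 11.3-fold lower, a relative log2 change of -3.50 (SE 0.086, limma adjusted p = 4.763e-08). Cxcl1, the chemokine KC, was at 6.80, 6.75 and 6.64 FPKM in WT and at 1.17, 1.32 and 1.33 in 3KR. Its groups were tight and well apart, with a 5.29-fold lower level in 3KR and a relative log2 change of -1.92 (SE 0.057, limma adjusted p = 1.183e-07). Cxcl2, or MIP-2, which stands beside Cxcl1 in the genome, was lower than Cxcl1 in WT and had a smaller ratio. It was at 1.85, 2.49 and 2.80 FPKM in WT and at 1.21, 1.40 and 1.39 in 3KR, and the lowest WT library stood above the highest 3KR library. The fall was 1.79-fold, a relative log2 change of -0.68 (SE 0.107, limma adjusted p = 0.00332). In 3KR, Cxcl1 and Cxcl2 were at levels that overlapped.

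The other neutrophil members lay below the filter and were not tested. Cxcl3, a further Cxcr2 ligand, was at 0.185, 0.176 and 0.249 FPKM in WT and at 0.118, 0.0176 and 0.0202 in 3KR, and Cxcl15, or lungkine, at 0.148, 0.169 and 0.173 in WT and at 0.0295, 0.0613 and 0.0473 in 3KR. For both, every 3KR library was under every WT library, which held for 7.98% of the 8041 genes below the filter that were above 0 in at least 1 library. The 5 genes together summed to 94.4, 100.3 and 120.2 FPKM in WT and to 11.1, 10.96 and 11.3 in 3KR, most of it Cxcl5 in both groups.

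The 3 tested chemokines of the MCP group fell, and Ccl12, or MCP-5, was near 0 and not tested. They were counted with the monocyte chemokines, including Ccl8, which is not listed as a ligand of Ccr2. Ccl2, or MCP-1, the main ligand of Ccr2, was at 44.9, 46.2 and 46.0 FPKM in WT and at 12.5, 14.9 and 14.4 in 3KR. The WT libraries differed little, and the groups were far apart. Ccl2 was 3.28-fold lower, with a relative log2 change of -1.80 (SE 0.062, limma adjusted p = 2.678e-07). Ccl7, or MCP-3, was the most abundant of the group, at 71.5, 70.7 and 67.5 FPKM in WT and at 29.6, 29.8 and 34.4 in 3KR. Its 3KR libraries stayed above all 3KR libraries of the other tested chemokine members except Cx3cl1. Cxcl12, which is not a member, was higher. The fall was 2.24-fold, a relative log2 change of -1.29 (SE 0.061, limma adjusted p = 2.067e-06). Ccl8, called MCP-2 and a ligand of Ccr8 in the mouse, was at 4.82, 4.18 and 3.94 FPKM in WT and at 0.415, 0.455 and 0.483 in 3KR, 9.57-fold lower. No 3KR library reached 1 FPKM, so Ccl8 was tested only because of its WT level. Its relative log2 change was -2.02 (SE 0.077, limma adjusted p = 4.384e-07).

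Cx3cl1 went the other way. It encodes fractalkine, a chemokine on a membrane-anchored mucin stalk that holds cells bearing Cx3cr1, such as monocytes, and that is also shed as a soluble ligand. It was at 34.5, 35.9 and 34.1 FPKM in WT and at 78.4, 90.5 and 77.1 in 3KR. All 3KR libraries were at more than the highest WT library, with replicate 2 above the other two. The level was 2.35-fold higher in 3KR, a relative log2 change of 1.06 (SE 0.062, limma adjusted p = 1.565e-06). After median ratio scaling the log2 difference was 1.04 (limma adjusted p = 4.457e-06). Cx3cr1 was not analysed here. Of its neighbours on chromosome 8, Ccl17 was listed at 0 in all libraries, and Ccl22 was not analysed here.

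The remaining chemokines of the monocyte group, Ccl9, Ccl6, Ccl3, Ccl4 and Ccl12, lay below the filter. Ccl9, or MIP-1 gamma, was at 0.497, 0.488 and 0.459 FPKM in WT and at 0.285, 0.140 and 0.325 in 3KR. Ccl6 was at 0.151, 0.109 and 0.136 in WT and listed at 0 in all 3KR libraries. Ccl3, or MIP-1 alpha, was at 0.0882, 0.0917 and 0.0855 in WT and at 0, 0.0136 and 0 in 3KR. For these 3 genes, none of them tested, the groups did not overlap. Ccl4 and Ccl12 were under 0.05 FPKM in every library. Macrophage markers were lower beside them: all 15, of which 2 were tested, had a lower mean in 3KR, against 42.8% of the low genes above 0 and 26.8% of the tested genes, and 5 (Marco, Ms4a7, Aif1, C1qa and C1qb) were listed at 0 in every 3KR library. These 5 were at most 0.160 FPKM in any WT library. Aif1 was also listed at 0 in WT replicates 1 and 3, and C1qa in WT replicate 2. The share of all low genes at 0 in every 3KR library was not worked out. Mpeg1, which encodes a pore-forming protein of macrophages, averaged 6.79 ± 0.287 FPKM with WT and 0.854 ± 0.361 with 3KR (SD, n = 3). It made up most of the summed FPKM of the 15 markers in WT. The other tested marker, Cd68, averaged 1.16 ± 0.113 and 0.700 ± 0.427 (SD, n = 3; limma adjusted p = 0.0836). Cd68 was not called under any scaling. Ptprc, which encodes the leukocyte marker CD45, averaged 0.119 ± 0.0181 and 0.0219 ± 0.0380 (SD, n = 3). The part of these cells in the lower chemokine levels was not tested.

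Chemokines of activated T cells and NK cells were lower throughout: all 4 in the table were tested and all 4 fell. Cxcl9 was at 6.39, 4.83 and 5.70 FPKM in WT and at 0.475, 0.558 and 0.561 in 3KR, 10.6-fold lower, and was tested because of its WT level alone (relative log2 change -2.26, SE 0.091, limma adjusted p = 5.703e-07). Cxcl10, whose promoter above held both kinds of match, was at 5.14, 4.99 and 6.21 FPKM in WT and at 1.52, 1.47 and 1.74 in 3KR. The 3KR libraries all lay well under the WT libraries. Cxcl10 was 3.45-fold lower, with a relative log2 change of -1.47 (SE 0.085, limma adjusted p = 5.671e-06). In WT the libraries of Cxcl9 and Cxcl10 overlapped, and in 3KR Cxcl9 was below Cxcl10 in every library.

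Ccl5, or RANTES, a ligand of Ccr1 and Ccr3, was at 6.93, 6.63 and 6.56 FPKM in WT and at 1.97, 1.91 and 2.70 in 3KR. Replicate 3 was the highest of the 3KR libraries and still far below WT. The fall was 3.06-fold, a relative log2 change of -1.43 (SE 0.093, limma adjusted p = 1.188e-05). Cxcl16, a membrane-anchored chemokine like fractalkine and the ligand of Cxcr6, was at 4.36, 4.09 and 3.73 FPKM in WT and at 2.18, 2.80 and 2.05 in 3KR. Its groups came nearest to each other among the 4 genes. It was 1.73-fold lower, a relative log2 change of -0.75 (SE 0.094, limma adjusted p = 8.338e-04). The membrane-anchored pair thus moved in opposite directions.

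Among chemokines of eosinophils and type 2 helper T cells, Ccl11, or eotaxin, had the largest ratio of all tested members. It was at 9.19, 8.65 and 7.62 FPKM in WT and at 0.271, 0.220 and 0.300 in 3KR. Eotaxin was thus a mid-ranking chemokine transcript in WT and the lowest of the 17 members in 3KR. It was 32.2-fold lower, a relative log2 change of -3.06 (SE 0.076, limma adjusted p = 4.989e-08), and it was tested because of its WT level alone. Its log2 difference was -2.91 with the pseudocount of 1 and -4.56 with a pseudocount of 0.1. Ccl17 and Ccl24 were listed at 0 in all 6 libraries.

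Chemokines that serve skin and mucosa were divided. Cxcl14, a chemokine made at rest in skin and other tissues, was at 44.8, 43.6 and 43.2 FPKM in WT and at 25.5, 24.9 and 25.0 in 3KR. Both groups were tight, and the difference was many times the spread. It was 1.75-fold lower, a relative log2 change of -0.93 (SE 0.037, limma adjusted p = 9.580e-07). Ccl25, the thymus and gut ligand of Ccr9, was at 0.881, 0.519 and 1.02 FPKM in WT and at 1.35, 1.53 and 1.42 in 3KR, 1.77-fold higher (relative log2 change 0.29, SE 0.109, limma adjusted p = 0.00871). Ccl28, a mucosal ligand of Ccr10, was at 0.842, 0.813 and 0.630 FPKM in WT and at 1.66, 1.14 and 1.92 in 3KR, 2.07-fold higher (relative log2 change 0.39, SE 0.119, limma adjusted p = 0.00503). Both genes that rose were low and passed the filter through 3KR. Their limma adjusted p after median ratio scaling was 0.0334 for Ccl25 and 0.0136 for Ccl28.

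The remaining ligands were at low levels. Ccl27b was at 0, 0.773 and 0.900 FPKM in WT and at 0.535, 0.437 and 0.726 in 3KR, and its WT replicate 1 stood apart from the other two. Ccl27a and Ccl27b are near copies that overlap the interleukin-11 receptor genes Il11ra1 and Il11ra2 in the RefSeq table, so the assignment of reads to them is uncertain. Ccl27a was at most 0.130 FPKM, and Ccl20, a ligand of Ccr6, and Cxcl13, the B cell chemokine, were lower still. Cxcl17 was listed at 0 in all 6 libraries.

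**Figure D2:**
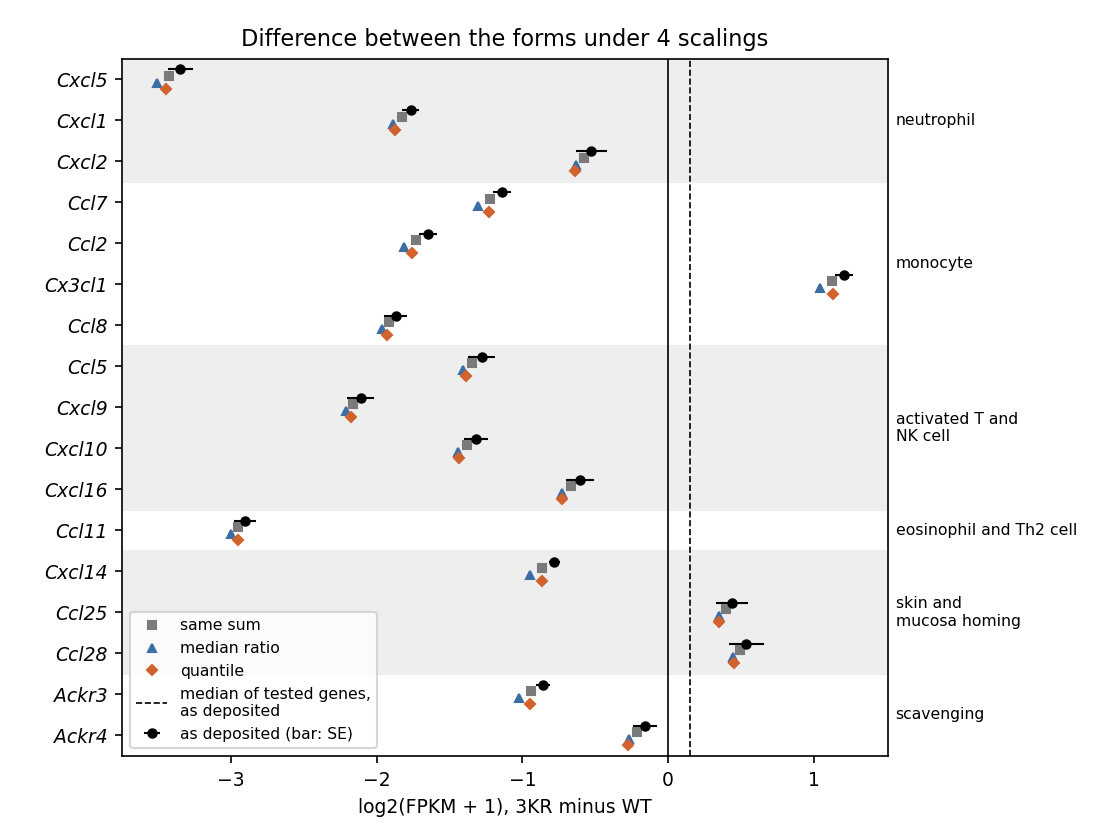
Difference between 3KR and WT in log2(FPKM + 1) for the 17 tested members under 4 scalings, with the standard error for the deposited scale (black circles) and the median tested gene as a dashed line. Under each scaling 13 genes lie left of 0 with an adjusted p under 0.05, Ackr4 lies left of 0 and passes in 2 of the 4, and Cx3cl1, Ccl25 and Ccl28 lie right of 0.

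Receptors for these ligands were at or near 0. None of the 11 classical receptor genes passed the filter, and the highest value in any library was 0.173 FPKM, for Cxcr6, which averaged 0.0598 FPKM with WT and 0.123 with 3KR. Ccr2, the receptor of Ccl2, and Ccr3, the eotaxin receptor, were listed at 0 in all 6 libraries. Cxcr3 was listed at 0 in all 3KR libraries and reached 0.0537 FPKM in WT. Cxcr4, the receptor of Cxcl12, was at 0.0182, 0.0168 and 0.0117 FPKM in WT and at 0.0227, 0.0644 and 0.0268 in 3KR. Its 3KR libraries were the higher ones, at levels too low to test. Cxcr1 and Cxcr2, the receptors of the neutrophil chemokines, were not analysed here.

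Of the atypical receptors, Ackr3 was abundant and fell. Ackr3, also known as CXCR7, takes up Cxcl12 and lowers its local concentration, and it was at 46.6, 48.3 and 50.9 FPKM in WT and at 25.1, 26.8 and 27.1 in 3KR. The groups did not overlap, with a 1.85-fold lower level in 3KR and a relative log2 change of -1.01 (SE 0.049, limma adjusted p = 2.697e-06). Cxcl12 was at 414, 414 and 400 FPKM in WT and at 72.5, 71.7 and 66.8 in 3KR. Ackr4, which scavenges Ccl19, Ccl21 and Ccl25, was at 2.29, 2.45 and 1.95 FPKM in WT and at 1.89, 2.05 and 1.73 in 3KR. Its groups overlapped and the change was not called (relative log2 change -0.31, SE 0.081, limma adjusted p = 0.123). It was called lower after median ratio scaling (limma adjusted p = 0.0264) and quantile normalization (limma adjusted p = 0.0262). Ackr1, the Duffy antigen, was at 0.191, 0.198 and 0.192 FPKM in WT and at 0.144, 0.191 and 0.0826 in 3KR, and Ackr2 was listed at 0 throughout.

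**Figure D3:**
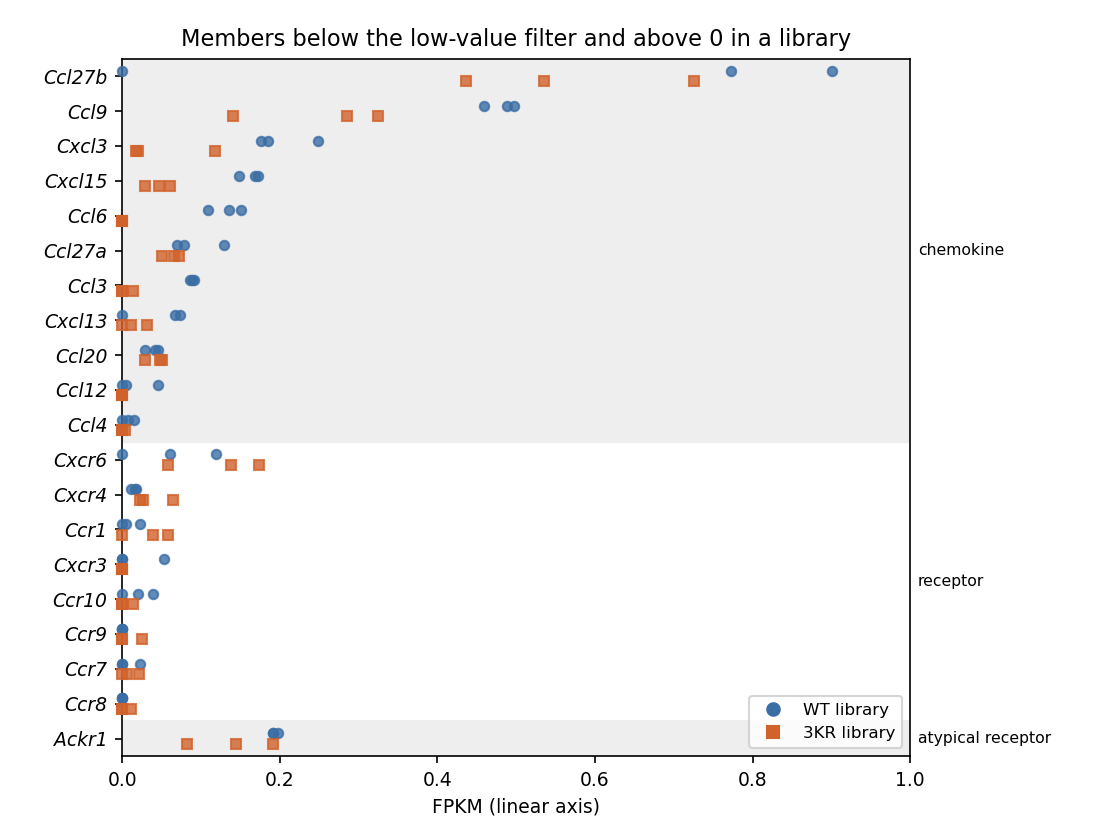
FPKM on a linear axis of members below the low-value filter that were above 0 in at least 1 library, in 3 WT libraries (circles) and 3 3KR libraries (squares). Each stays under 1 FPKM, and Ccl9, Cxcl3, Cxcl15, Ccl6 and Ccl3 have all 3KR squares left of all WT circles.

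In all, 27 members could not be tested: 14 chemokines, 11 classical receptors and 2 atypical receptors. Of these, 6 were listed at 0 in all libraries, and the highest value in any library was 0.900 FPKM. The other 21 were above 0 in at least 1 library. Every 3KR library was below every WT library for 5 of these 21 and above for 1, Cxcr4. Of all genes below the filter and above 0 in at least 1 library, 7.98% and 12.2% did so.

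The mixture of the chemokine transcripts followed here differed along with its amount, which is described without a test. Cxcl12, at 414, 414 and 400 FPKM in WT and at 72.5, 71.7 and 66.8 in 3KR, is not in the sums. Every share below would be smaller with it. FPKM is scaled by length, so levels of different genes can be set side by side. The 29 chemokine genes summed to 329.8, 333 and 348 FPKM in WT and to 167.8, 182 and 175 in 3KR. Without Cx3cl1 the sums were 295, 297 and 314 in WT and 89.4, 91.3 and 97.5 in 3KR. Cx3cl1 made up 10.5%, 10.8% and 9.79% of the sum in WT and 46.7%, 49.8% and 44.2% in 3KR. Cxcl5 made up 25.9%, 27.2% and 31.7% in WT and 5.09%, 4.49% and 4.89% in 3KR. The share of Cxcl14 was 12.4% to 13.6% in WT and 13.7% to 15.2% in 3KR. This small difference depends on leaving out Cxcl12, which exceeded the sum of the 29 genes in WT and not in 3KR. With Cxcl12 in the sum, the share of Cxcl14 would differ more, with 3KR the higher group.

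The order of levels differed accordingly. In WT the order of the chemokine members, without Cxcl12, began by mean FPKM with Cxcl5, Ccl7, Ccl2, Cxcl14 and Cx3cl1. The libraries of neighbours in that order did not overlap. In 3KR it began with Cx3cl1, Ccl7, Cxcl14, Ccl2 and Cxcl5, again without overlap. Further down, libraries of Cxcl1 and Ccl5, of Cxcl9 and Cxcl10, of Ccl8 and Cxcl16 and of Ccl25 and Ccl28 overlapped in WT. In 3KR the order went on with Cxcl16, Ccl5, Cxcl10, Ccl28, Ccl25, Cxcl2 and Cxcl1, where each overlapped the next except Ccl5, which lay above Cxcl10. With Cxcl12 left out by name, Cx3cl1 led the 3KR chemokines, and its lowest 3KR library, at 77.1 FPKM, was also above the highest 3KR library of Cxcl12, at 72.5.

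**Figure D4:**
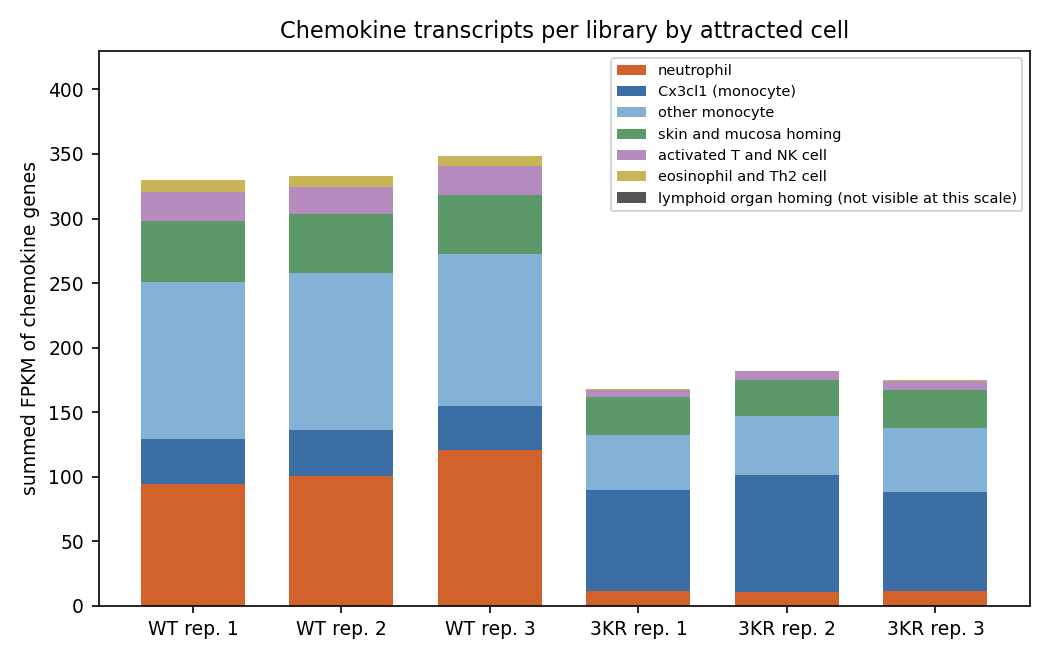
Summed FPKM of the 29 chemokine genes in each library, stacked by the cells they attract, with Cx3cl1 shown apart from the other monocyte chemokines. The neutrophil part goes from 94.4 to 120.2 FPKM in WT to 10.96 to 11.3 in 3KR, while the Cx3cl1 part is larger in the 3KR libraries.

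Chemokine genes lie in clusters, and their neighbours are described here without a test. By the order of genes in the RefSeq table, Ccl2, Ccl7, Ccl11, Ccl12 and Ccl8 follow each other on chromosome 11. The 4 tested ones fell by 2.24-fold to 32.2-fold, while Ccl12 in their midst was near 0 in both groups. A second run on chromosome 11, Ccl5, Ccl9, Ccl6, Ccl3 and Ccl4, had non-overlapping groups, lower in 3KR, for 4 of 5, of which only Ccl5 passed the filter. On chromosome 5 the order is Cxcl5, Ppbp, Pf4, Cxcl3, Cxcl15, Cxcl1 and Cxcl2. The 3 tested ones fell by 1.79-fold to 11.3-fold, and of the other 4, below the filter, the groups of Ppbp, Cxcl3 and Cxcl15 did not overlap and those of Pf4 did. Such a lower group without overlap was found for 15.5% of tested genes and 7.98% of low genes above 0. Ppbp and Pf4, platelet chemokines whose names the selection did not match, averaged 0.924 ± 0.0973 and 0.108 ± 0.0627 FPKM with WT against 0.137 ± 0.0607 and 0.0461 ± 0.0178 with 3KR (SD, n = 3). Some members overlap another gene in the table, among them Cxcl10 with Art3, Cxcl16 with Zmynd15 and Ackr4 with Acad11. The labels and the file do not say whether the counting used strand, so reads of such partners cannot be told apart.

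Many genes upstream of chemokine induction fell in 3KR, with Irf7 the lowest of those drawn. Of 39 tested receptors, adaptors and transcription factors of the Toll-like, interleukin-1, tumour necrosis factor, interleukin-17 and interferon routes, 19 fell and 5 rose, against 14.0% and 46.7% of all tested genes. The 19 fell under all 4 scalings, and 2 of the 5, Rela and Chuk, rose under all 4. Of all tested genes, 13.9% were called lower and 21.5% higher under all 4. The median relative log2 change of the list was -0.29. Irf7, an interferon regulatory factor, fell from 844 ± 81.5 to 230.1 ± 30.1 FPKM (SD, n = 3), a relative log2 change of -2.02 (limma adjusted p = 1.766e-06). Tlr3, a sensor of double-stranded RNA, fell 2.01-fold to 7.59 ± 0.353 FPKM (SD, n = 3). Zc3h12a fell 2.24-fold to 3.14 ± 0.0835 FPKM (SD, n = 3), although its product, Regnase-1, degrades inflammatory transcripts.

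The NF-kB subunits in that list did not move as a block, and they were named after their values were seen. Nfkb1 fell from 12.4 ± 0.274 to 8.71 ± 0.312 FPKM (SD, n = 3; limma adjusted p = 8.387e-05), and Rela rose from 80.6 ± 0.400 to 101.4 ± 2.84 (limma adjusted p = 1.061e-04). The other subunits, Nfkb2, Relb and Rel, were not called as deposited (limma adjusted p = 0.0856, 0.168 and 0.891). Relb was called lower under the other 3 scalings, and Nfkb2 and Rel under none. Nfkbia, the NF-kB inhibitor that NF-kB itself induces, averaged 10.5 ± 0.170 FPKM with WT and 10.4 ± 0.611 with 3KR (SD, n = 3; limma adjusted p = 0.713), and was called lower after median ratio scaling (limma adjusted p = 0.0123) and quantile normalization (limma adjusted p = 0.0359). Irf1 was at 18.1 ± 0.364 and 18.2 ± 0.747 (SD, n = 3; limma adjusted p = 0.929), and was called lower after median ratio scaling (limma adjusted p = 0.0136). The cytokines that start these routes were barely detected. Tnf averaged 0.0355 ± 0.0363 FPKM with WT and 0.00747 ± 0.0129 with 3KR (SD, n = 3), Il1a and Ifnb1 were lower still, and Il1b was listed at 0 in all 6 libraries.

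**Figure D5:**
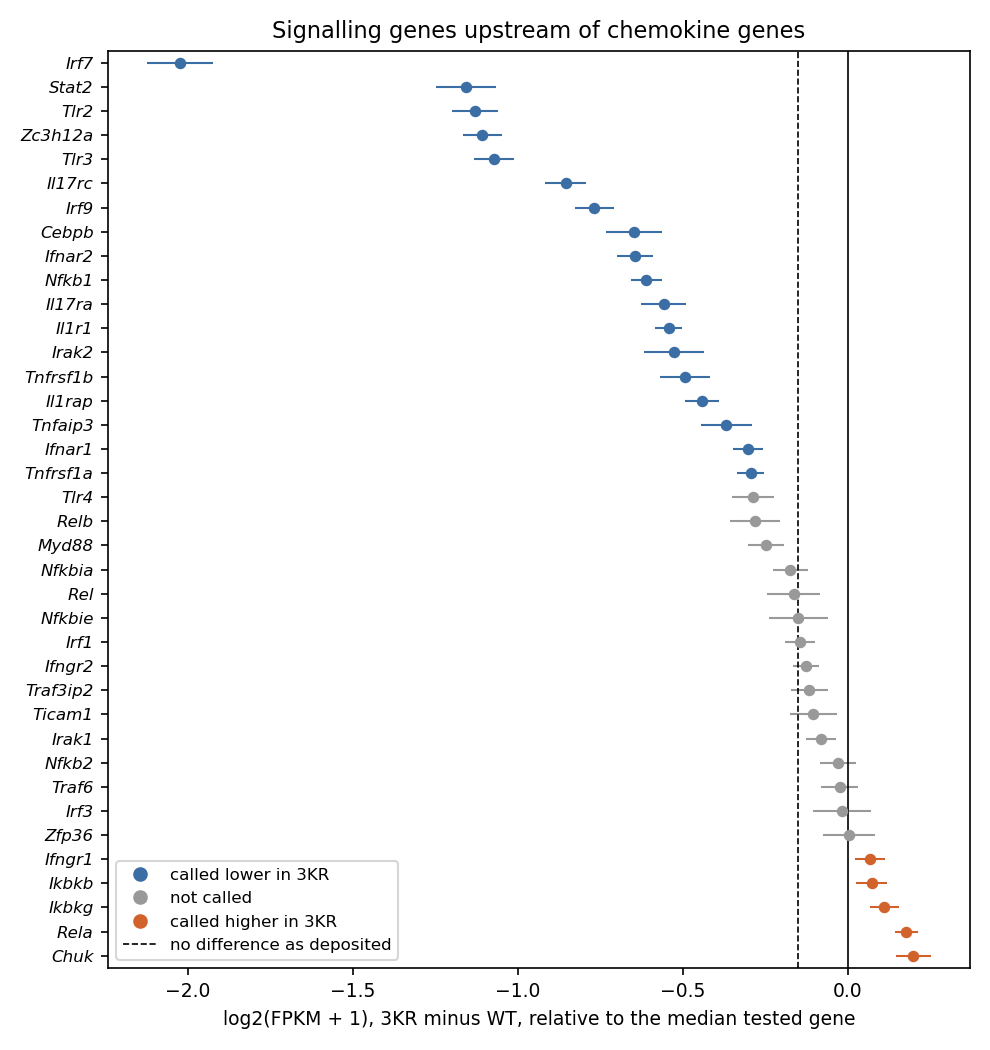
Relative log2 change, 3KR minus WT, with its standard error for tested genes upstream of chemokine induction, coloured by call, with the median tested gene at 0 and no difference on the deposited scale as a dashed line. Irf7 is lowest at -2.02, the genes called lower lie left of the dashed line, and the 5 called higher lie right of 0.

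Genes by which chemokine receptors signal inside a cell moved in both directions, and their split depended on the scaling. Of 29 tested G protein subunits, receptor kinases, arrestins, phosphoinositide 3-kinases and small GTPases, 5 fell and 14 rose as deposited, near the 14.0% and 46.7% of all tested genes, and 8 fell and 3 rose after median ratio scaling, where 24.1% of all tested genes were called lower and 21.6% higher. Under all 4 scalings 5 fell and 3 rose, where 13.9% of all tested genes were called lower and 21.5% higher. The median relative log2 change was -0.02. Adrbk2, which encodes the receptor kinase GRK3, rose from 50.6 ± 3.85 to 125.8 ± 18.9 FPKM (SD, n = 3), a relative log2 change of 1.14 (limma adjusted p = 1.636e-05). Tiam1, an activator of Rac, rose 1.51-fold (limma adjusted p = 1.385e-04), and Rgs16, which shortens G protein signals, rose 1.47-fold (limma adjusted p = 1.931e-04). Gng12, a G protein gamma subunit, fell 1.46-fold (limma adjusted p = 2.133e-05). Among 7 further chemokine-related genes outside the name rule, only Gpr35 passed the filter, and it fell from 3.01 ± 0.656 to 0.638 ± 0.0863 FPKM (SD, n = 3; limma adjusted p = 3.841e-05). No 3KR library of Gpr35 reached 1 FPKM, so it was tested only because of its WT level.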

How the data were processed

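The 6 libraries, 3 per form of FTO by their titles, were inputs of an m6A assay. The deposited table gave 1 FPKM value per gene and library, per the file headers. No aligner, counter or annotation is given in the sources used here. The build named in the submitters' processing notes is human (GRCh38), although organism and symbols are mouse, so names alone joined the table to RefSeq (GRCm38.p6), and all 44 members matched. For each repeated name (24 rows) the row of highest mean was used. Whole reads could not be recovered (the most frequent ratio between libraries was shared by 9 of 5442 low genes), so the depth is unknown.

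Values were compared as log2(FPKM + 1) with limma 3.58.1 in R 4.3.3 (empirical Bayes with intensity trend), for genes at 1 FPKM or more in at least 3 libraries, with Benjamini-Hochberg adjustment over all 10985 genes and a threshold of 0.05. A pseudocount understates changes of low genes. Adjusted p-values test the deposited scale unless a scaling is named. The fit was tested on simulated data. Members above the filter were named in full, others from a group mean of 0.1 FPKM, some lower ones by choice, and up to 4 genes of each pathway list by p. Members and lists (pathway, stromal, macrophage, neutrophil, T and NK, B, endothelial and platelet) were chosen with earlier results of these data known, so they are no independent support. Ligand sums, clusters and promoters were described without a test. Alternatives were another pseudocount, other filters and scalings, a replicate block, no trend and leaving out each library. Some genes that enter the counts are not reported here by name or drawn.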

Additional observations from a re-analysis of the deposited data

How the results depend on the processing

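The calls of the members held under the alternatives, with the exceptions given here. Requiring an FPKM of 5 in at least 3 libraries left 9 members, of which 8 fell and 1 rose, because fewer genes were tested. Of those that fell, Ccl11, Cxcl1 and Ccl5 passed this filter through WT alone, so a difference was built into their choice. Without a filter 38 members entered, and 18 fell and 3 rose. The shares of all genes called under these settings were not worked out, so the counts have no background beside them. Leaving out any single library gave 13 lower and 3 higher members. Of 230 values of single members under the 14 alternatives, 228 stayed on their side of the threshold and the 2 others were Ackr4, now called, under the median ratio (-0.27) and quantile (-0.27) scalings. No direction reversed. The receptor signalling list depended on scaling: 14 genes rose as deposited, 7 with the same sum, 3 by median ratio and 7 by quantile normalization, while 8 fell by median ratio and 3 at an FPKM of 5 or more. Leaving out a library gave 10 to 15 higher and 4 to 5 lower genes. Of the upstream list, 2 rose by median ratio and 3 by quantile normalization, and leaving out a library gave 5 to 7 higher and 17 to 19 lower. With the replicate number as a block, 13 members fell and 3 rose, and no call of a member changed. The deviations of same-numbered libraries correlated at -0.015, 0.029 and -0.034, and those of differently numbered libraries at -0.06 to 0.079. With 3 libraries per group, this cannot show whether same-numbered libraries shared a culture or batch, which the labels do not state. The depth is unknown, so no detection limit can be given for genes listed at 0.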
